A study of Mus musculus with 8 samples.

Results

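The receptors described here are 8 mouse genes of the leukocyte and paired immunoglobulin-like receptor families, measured by RNA sequencing in spleen: Lilrb4a, Pirb and Pilra, which carry inhibitory motifs, and Lilr4b, Lilra5, Lilra6, Pilrb1 and Pilrb2, which do not. They were chosen by symbol, with earlier results on these libraries known, and they are 8 of the 52636 genes in the count table; all 8 were among the 17327 genes with enough counts to be tested. Spleens came from C57BL/6 mice that carried the R527C substitution in Lmna or were wild type, and that were 6 weeks old when treated. The 4 groups were mutant and wild type taken 7 days after 4 Gy of irradiation, and mutant and wild type taken at day 0 without irradiation, with 2 libraries each. Lmna encodes the A-type lamins of the nuclear envelope. The labels give neither the number of mutant alleles nor sex, litter or batch, and nothing in them says that the 2 libraries of a group came from separate mice, so a p-value here sets a difference against library-to-library spread, which may be technical in part.

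Paired receptors are sets of cell-surface proteins with similar outer domains and opposite signals. The inhibitory members carry tyrosine motifs in a long tail, which recruit phosphatases such as SHP-1 (Ptpn6), whereas the activating members have a short tail and signal through adaptors such as DAP12 (Tyrobp) or the Fc receptor gamma chain (Fcer1g). In spleen they are known mainly from granulocytes, monocytes, macrophages, dendritic cells and B cells, where ligands include MHC class I molecules for PIR-B and sialylated glycoproteins for PILR alpha. On GRCm38 the genes form 4 loci. Lilrb4a at chr10:51490956-51496611 and Lilr4b at chr10:51480632-51486703 are neighbours on the plus strand. Pirb at chr7:3711409-3720391 and Lilra6 at chr7:3908280-3915503 are on the minus strand, and Lilra5 at chr7:4237754-4243463 lies apart from them on the plus strand. Pilra at chr5:137821952-137836281, Pilrb1 at chr5:137852147-137858106 and Pilrb2 at chr5:137865827-137871815 follow each other on the minus strand.

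The difference between the classes can be read in the reference coding sequences of the neighbouring genes Lilrb4a and Lilr4b on chromosome 10, which encode gp49B and gp49A. These were 96.0% identical over 910 aligned coding bases (GENCODE M21, GRCm38). Their coding ends from codon 290 to the stop codon are shown because this is where they part, with the codons that fit the inhibitory motif (isoleucine, leucine, valine or serine, any residue, tyrosine, any 2 residues, then isoleucine, leucine or valine) in capitals.
Lilrb4a: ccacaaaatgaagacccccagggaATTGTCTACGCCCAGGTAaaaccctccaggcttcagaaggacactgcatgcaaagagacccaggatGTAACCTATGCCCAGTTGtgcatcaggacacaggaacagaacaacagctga
Lilr4b: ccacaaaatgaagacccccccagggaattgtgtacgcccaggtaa
Lilrb4a has 2 such motifs, at codons 298 to 303 and 320 to 325. In Lilr4b the run of cytosines before the first motif is 7 bases long, against 5 in Lilrb4a, so the letters that follow are read in another frame and end in a stop codon after 303 coding codons, against 335 in Lilrb4a. After the hydrophobic stretch that spans the membrane, Pirb had 3 such motifs and Pilra had 1. Lilra5, Lilra6, Pilrb1 and Pilrb2 had 0 there, with 23, 10, 7 and 7 codons left after that stretch.

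The other 2 sets of close relatives have similar promoters, shown here as the bases before the first annotated exon (RefSeq, GRCm38.p6). They are shown because the genes of the first set had closer profiles over the libraries than those of the second. Lilrb4a had no promoter in the reference used, so it was neither compared with Lilr4b nor searched for words. Capitals mark matches on either strand to the PU.1 word GAGGAA, the ETS word ACTTCC (which overlaps GAGGAA in Lilra6 and Pirb), the interferon-response (ISRE) word (GAAA, any 2 bases, GAAA) and the C/EBP word TTGCNNAA.
Pilra, chr5:137836282-137836528, minus strand: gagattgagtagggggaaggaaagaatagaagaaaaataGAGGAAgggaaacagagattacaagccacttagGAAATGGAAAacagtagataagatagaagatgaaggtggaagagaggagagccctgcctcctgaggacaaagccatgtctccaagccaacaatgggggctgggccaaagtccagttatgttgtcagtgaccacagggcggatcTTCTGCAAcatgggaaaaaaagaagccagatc
Pilrb1, chr5:137858107-137858299, minus strand: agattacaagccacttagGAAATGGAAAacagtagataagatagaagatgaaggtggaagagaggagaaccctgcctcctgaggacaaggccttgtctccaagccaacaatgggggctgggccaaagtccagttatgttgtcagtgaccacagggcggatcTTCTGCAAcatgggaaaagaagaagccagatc
Pilrb2, chr5:137871816-137872008, minus strand: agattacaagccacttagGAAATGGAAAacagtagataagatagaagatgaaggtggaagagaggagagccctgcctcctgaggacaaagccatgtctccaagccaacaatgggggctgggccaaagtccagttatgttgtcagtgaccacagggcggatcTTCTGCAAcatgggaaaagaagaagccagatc
Pirb, chr7:3720392-3720632, minus strand: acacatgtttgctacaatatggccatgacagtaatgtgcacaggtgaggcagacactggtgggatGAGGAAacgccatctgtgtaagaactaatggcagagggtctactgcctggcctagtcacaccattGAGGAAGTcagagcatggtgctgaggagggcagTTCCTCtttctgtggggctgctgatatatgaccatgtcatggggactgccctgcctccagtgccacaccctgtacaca
Lilra6, chr7:3915504-3915751, minus strand: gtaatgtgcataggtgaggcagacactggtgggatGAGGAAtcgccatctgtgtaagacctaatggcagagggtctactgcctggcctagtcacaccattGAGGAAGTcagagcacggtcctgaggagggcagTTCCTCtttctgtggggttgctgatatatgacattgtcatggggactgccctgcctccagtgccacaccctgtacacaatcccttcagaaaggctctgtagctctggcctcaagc
Pilra and Pilrb2 were 99.5% identical over 196 aligned bases, Pilrb1 and Pilrb2 98.4% over 250 bases, and Lilra6 and Pirb 96.4% over 220 bases. The ISRE word was in all 3 promoters of the Pilra locus and in 2.98% of 32851 mouse promoters, each searched over the 250 bases before the start. GAGGAA stood 3 times in Pirb and in Lilra6 and 1 time in Pilra and in Lilra5. It stood at least once in 23.3% of all promoters. ACTTCC was in Pirb, Lilra6, Pilrb1 and Pilrb2, and in 19.7% of all promoters. In Pilrb1 and Pilrb2 it began 51 bases before the start, past the bases shown. TTGCNNAA, in the Pilra locus and Lilra5, was in 9.56% of promoters, and the STAT word TTCNNNGAA, in Lilr4b and Lilra5, was in 7.02%. These matches describe letters and say nothing of binding.

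Total counts per library ranged from 12100784 to 19455470. The 2 irradiated mutant libraries resembled each other least (r = 0.877 over log2 CPM of the genes tested, with 42.7% of genes differing by more than 2-fold), against 0.942 in irradiated wild type, 0.988 in unirradiated mutants and 0.982 in unirradiated wild type. Xist, the RNA of the inactive X chromosome, was at 1029 to 1776 CPM in the 4 irradiated libraries and at most at 0.262 CPM in the 4 unirradiated ones, and the Y-linked Ddx3y, Kdm5d, Uty and Eif2s3y had 0 counts in all 4 irradiated libraries. Irradiation, day and sex-linked expression therefore changed together, and their parts in every irradiation difference below cannot be told apart.

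The summed level of the 8 receptors was highest in unirradiated mutants. It was 157 and 204 CPM (counts scaled to library size with TMM factors) in irradiated mutants and 70.2 and 98.1 CPM in irradiated wild type. In unirradiated spleens it was 281 and 312 CPM in mutants and 145 and 124 CPM in wild type. The mutant libraries thus lay above the wild-type libraries of the same day on both days, without overlap. In bulk tissue, more cells of a type and more RNA per cell cannot be told apart.

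**Figure D1:**
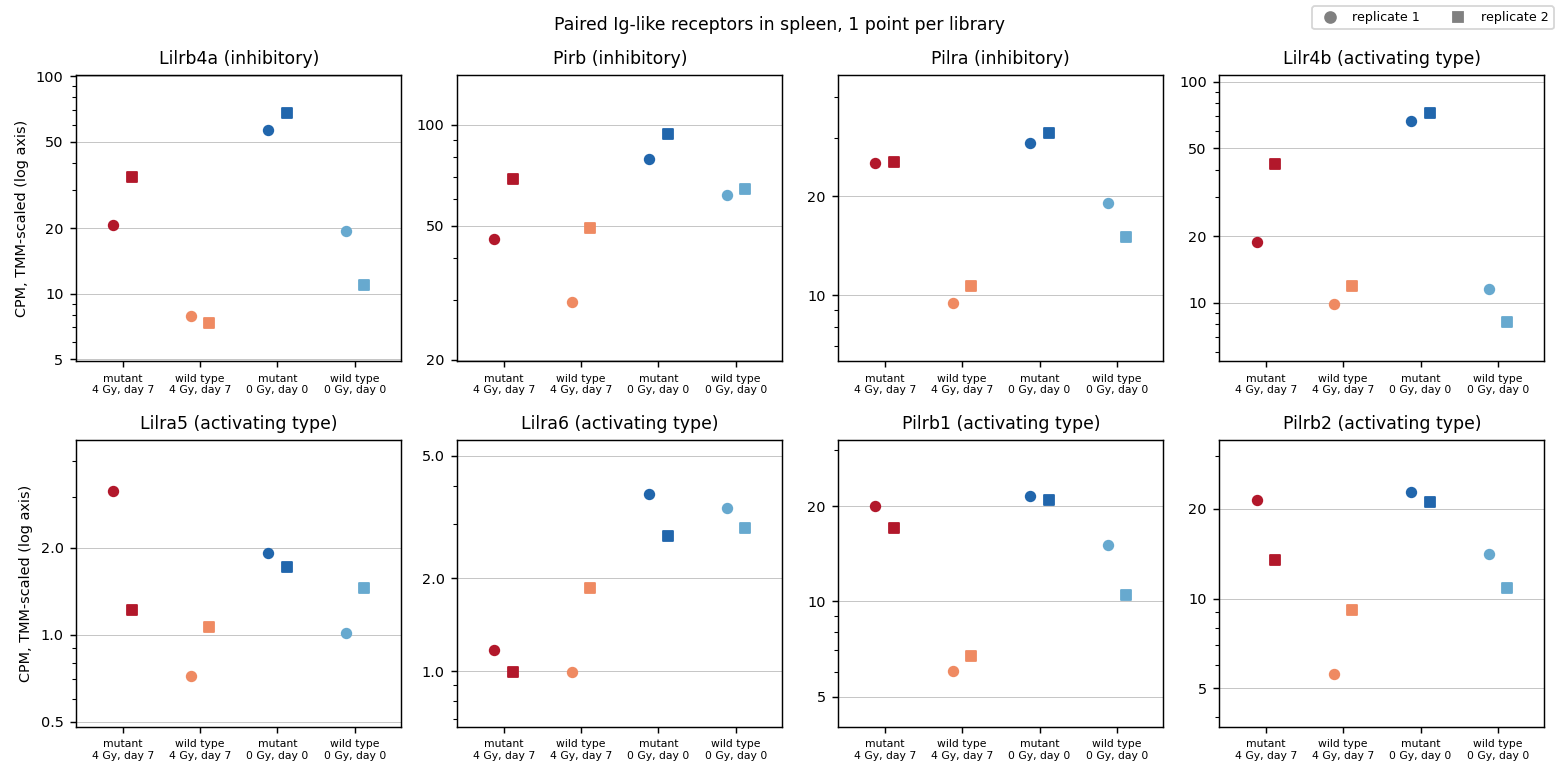
Level of each receptor gene in each of the 8 spleen libraries, as CPM on TMM-scaled library sizes (log axis, 1 panel per gene with its own range); circles are replicate 1 and squares replicate 2. Lilr4b and Lilrb4a stand above the other 3 groups in unirradiated mutants, at 56.7 to 71.9 CPM, and Pilra, Pilrb1 and Pilrb2 are lowest in irradiated wild type.

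Lilrb4a, the inhibitory gp49B receptor of mast cells and myeloid cells, was at 20.8 and 34.5 CPM in irradiated mutants and at 7.93 and 7.33 CPM in irradiated wild type. In unirradiated spleens it was at 56.7 and 67.9 CPM in mutants and at 19.5 and 10.9 CPM in wild type. Unirradiated mutants were thus the highest group, the irradiated mutants came next with their lower library close to the higher unirradiated wild-type one, and irradiated wild type was lowest.

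Lilr4b, the gp49A neighbour without the inhibitory motifs, was at 18.9 and 42.4 CPM in irradiated mutants and at 9.82 and 11.9 CPM in irradiated wild type. It was at 66.3 and 71.9 CPM in unirradiated mutants and at 11.5 and 8.16 CPM in unirradiated wild type. The order of the mutant groups was that of Lilrb4a, but the 2 wild-type groups overlapped. The first irradiated mutant library had less than the second for both genes of the locus, and was nearer to wild type in both.

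Within the locus, Lilr4b took 47.6% and 55.1% of the counts of both genes in irradiated mutants and 55.3% and 61.9% in irradiated wild type. It took 53.9% and 51.4% in unirradiated mutants and 37.1% and 42.7% in unirradiated wild type. The share was thus lowest in the 2 unirradiated wild-type libraries. Over 4 irradiated and 4 unirradiated libraries of both genotypes, the share was 55.0% ± 5.84 and 46.3% ± 7.77 (SD, n = 4 each). The difference of 8.72 points did not pass an exact two-sided permutation test (p = 0.143, adjusted p = 0.286 over 2 shares). The smallest p this design allows is 0.0286. The test pooled the genotypes, although in wild type the irradiated shares lay above the unirradiated ones and in mutants they overlapped. Its unirradiated libraries were those of the contrast taken to have chosen the genes.

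Pirb, the inhibitory receptor PIR-B that binds MHC class I, had higher mean levels in mutants on both days. It was at 45.8 and 68.8 CPM in irradiated mutants and at 29.7 and 49.4 CPM in irradiated wild type, which overlap. It was at 79.3 and 94.1 CPM in unirradiated mutants and at 61.6 and 64.5 CPM in unirradiated wild type, which do not.

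Lilra6, an A-class gene 93.8% identical to Pirb over 1992 aligned coding bases, was near the lower end of what these libraries measure. It was at 1.17 and 0.997 CPM in irradiated mutants and at 0.991 and 1.85 CPM in irradiated wild type. It was at 3.75 and 2.75 CPM in unirradiated mutants and at 3.38 and 2.91 CPM in unirradiated wild type. The groups of the 2 genotypes overlapped on both days, whereas every irradiated library was below every unirradiated one. Counts behind these values were 10 to 21 reads in the irradiated libraries and 46 to 86 in the unirradiated ones.

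Pilra, the inhibitory member of its locus on chromosome 5, was higher in both mutant libraries than in both wild-type libraries on each day. It was at 25.2 and 25.3 CPM in irradiated mutants and at 9.46 and 10.7 CPM in irradiated wild type. In unirradiated spleens it was at 28.9 and 31.2 CPM in mutants and at 19.04 and 15.1 CPM in wild type. No 2 of the 4 groups overlapped, in the order unirradiated mutant, irradiated mutant, unirradiated wild type and irradiated wild type.

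Pilrb1, a DAP12-coupled activating partner of Pilra, was at 19.97 and 17.1 CPM in irradiated mutants and at 6.04 and 6.71 CPM in irradiated wild type. It was at 21.6 and 20.9 CPM in unirradiated mutants and at 15.04 and 10.5 CPM in unirradiated wild type. The 4 groups stood in the same order as for Pilra and did not overlap.

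Pilrb2, the second activating partner, was at 21.5 and 13.5 CPM in irradiated mutants and at 5.59 and 9.18 CPM in irradiated wild type. It was at 22.7 and 21.03 CPM in unirradiated mutants and at 14.2 and 10.8 CPM in unirradiated wild type. Here the irradiated mutants overlapped both unirradiated groups, while irradiated wild type was below the other groups.

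Within the Pilra locus the activating share lay in a narrow range. Pilrb1 and Pilrb2 together took 62.2% and 54.7% of the counts of the 3 genes in irradiated mutants, 55.1% and 59.8% in irradiated wild type, 60.5% and 57.3% in unirradiated mutants, and 60.5% and 58.6% in unirradiated wild type. All 4 groups overlapped. The means were 58.0% ± 3.64 in irradiated and 59.2% ± 1.56 in unirradiated libraries (SD, n = 4 each), a difference of -1.29 points (exact two-sided permutation test, p = 0.543, adjusted p = 0.543 over 2 shares).

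**Figure D2:**
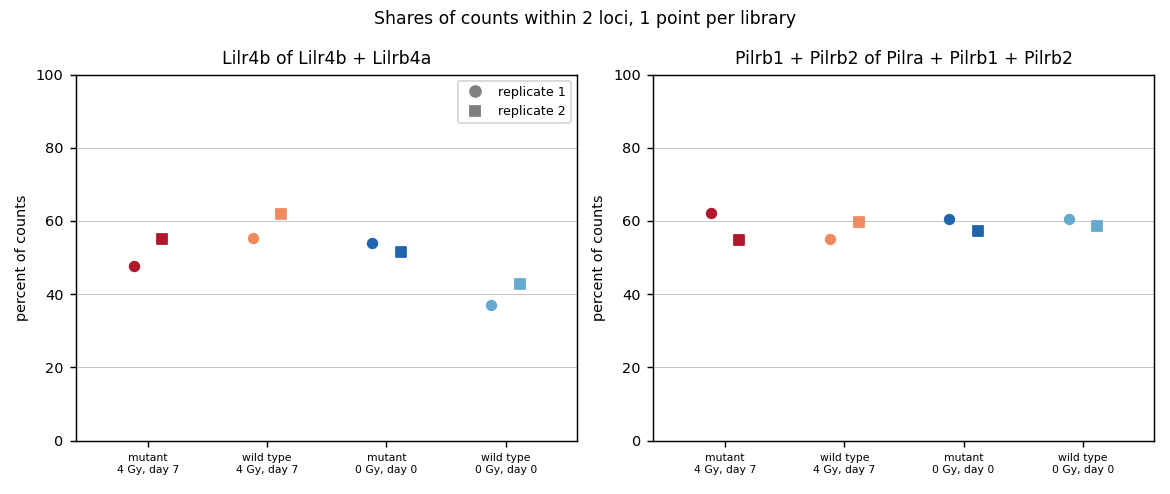
Share of counts taken by Lilr4b of Lilr4b and Lilrb4a (left), and by Pilrb1 and Pilrb2 of the whole Pilra locus (right), in percent on an axis from 0 to 100, 1 point per library. The Lilr4b share is lowest in unirradiated wild type, at 37.1% and 42.7%, while the Pilrb share lies between 54.7% and 62.2% in all 8 libraries.

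Lilra5, named for a human activating receptor of monocytes, had few counts. It was at 3.15 and 1.22 CPM in irradiated mutants and at 0.721 and 1.06 CPM in irradiated wild type. It was at 1.92 and 1.72 CPM in unirradiated mutants and at 1.01 and 1.46 CPM in unirradiated wild type. Mutant libraries lay above the wild-type libraries of their day, on 22 to 44 counts per mutant library and 8 to 23 per wild-type library.

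To compare levels between genes, counts were also divided by length. On the length of the longest coding transcript, mean levels in unirradiated mutants were 45.1 CPM per kb for Lilrb4a, 37.7 for Lilr4b and 22.7 for Pirb. The 3 genes of the Pilra locus lay between 11.7 and 12.1 CPM per kb, Lilra6 was at 1.42 and Lilra5 at 0.863. In unirradiated wild type the same scale put Pirb first at 16.5 CPM per kb, Lilrb4a next at 11.03 and Lilr4b at 5.36, below all 3 genes of the Pilra locus. On merged exon length, which includes retained introns, Pirb led in both groups, at 19.4 CPM per kb in unirradiated mutants and 14.1 in unirradiated wild type.

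The genotype difference without irradiation was the contrast taken to have singled these genes out, so its values are a description without a test. All 8 receptors had a log2 fold change above 0 (mutant over wild type), with a median of 0.77 against -0.02 over all genes tested, of which 46.7% were above 0. It was 2.81 ± 0.43 (SE) for Lilr4b and 2.03 ± 0.39 for Lilrb4a. The 3 genes of the Pilra locus had 0.73 to 0.82, Lilra5 had 0.57 ± 0.63, Pirb 0.46 ± 0.34 and Lilra6 0.04 ± 0.51. The value of Lilra6 ranged from -0.20 to 0.25 when 1 library was left out. The mutant libraries lay above the wild-type ones without overlap for 7 of the 8, the exception being Lilra6, and this was so for 20.7% of all genes tested. edgeR called 0 of the 8 in this contrast, against 0.0% of all genes, and put 4 under an unadjusted p of 0.05, against 2.24%. DESeq2 called 2 (0.354% of genes), edgeR without the filter on low counts 2 (0.484%), and edgeR on the 4 unirradiated libraries alone 3 (2.81%). Nothing is read from these counts, since the contrast was taken to have chosen the genes.

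The same genotype comparison 7 days after irradiation used other libraries, and the first comparison entered it only through the shared estimate of spread. The sources used here do not name the contrast behind the choice of genes, so day 7 values may have had a part in it. None of the 8 receptors was called (edgeR quasi-likelihood test with Benjamini-Hochberg adjustment over 17327 genes, adjusted p 0.886 or more), and percent called over all genes was 0.0. At an unadjusted p under 0.05 there were 5 receptors, namely Lilrb4a, Lilr4b, Pilra, Pilrb1 and Pilrb2, and 4.02% of all genes. The fold changes were log2 1.86 ± 0.39 for Lilrb4a, 1.5 ± 0.42 for Lilr4b, 1.33 ± 0.28 for Pilra, 1.54 ± 0.32 for Pilrb1 and 1.24 ± 0.39 for Pilrb2. Lilra5 had 1.26 ± 0.67, Pirb 0.54 ± 0.34 and Lilra6 -0.40 ± 0.56.

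The median over the 8 receptors was 1.29 at day 7, against 0.02 over all genes, and 7 of the 8 were above 0, against 51.6% of all genes. Mutant libraries lay above wild-type ones without overlap for 6 receptors, against 10.4% of all genes. DESeq2 called 3 of them higher in irradiated mutants, Lilrb4a (adjusted p = 0.0186), Pilra (adjusted p = 0.0118) and Pilrb1 (adjusted p = 0.0112), and 0.477% of the genes for which it gave an adjusted p. limma-voom called 0 of the 8 and 0.0% of all genes. Without the first irradiated mutant library, edgeR called Lilr4b (adjusted p = 0.0179) and Lilrb4a (adjusted p = 0.0201), and 2.57% of the genes then tested. Without the second it called 0 receptors and 1.53% of the genes then tested, and the log2 fold change of Lilr4b was 0.74. Each of these fits leaves irradiated mutants with 1 library, which is assumed to vary like those of the other groups. Without the filter on low counts it called Lilrb4a (adjusted p = 0.00542) and 0.569% of genes.

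**Figure D3:**
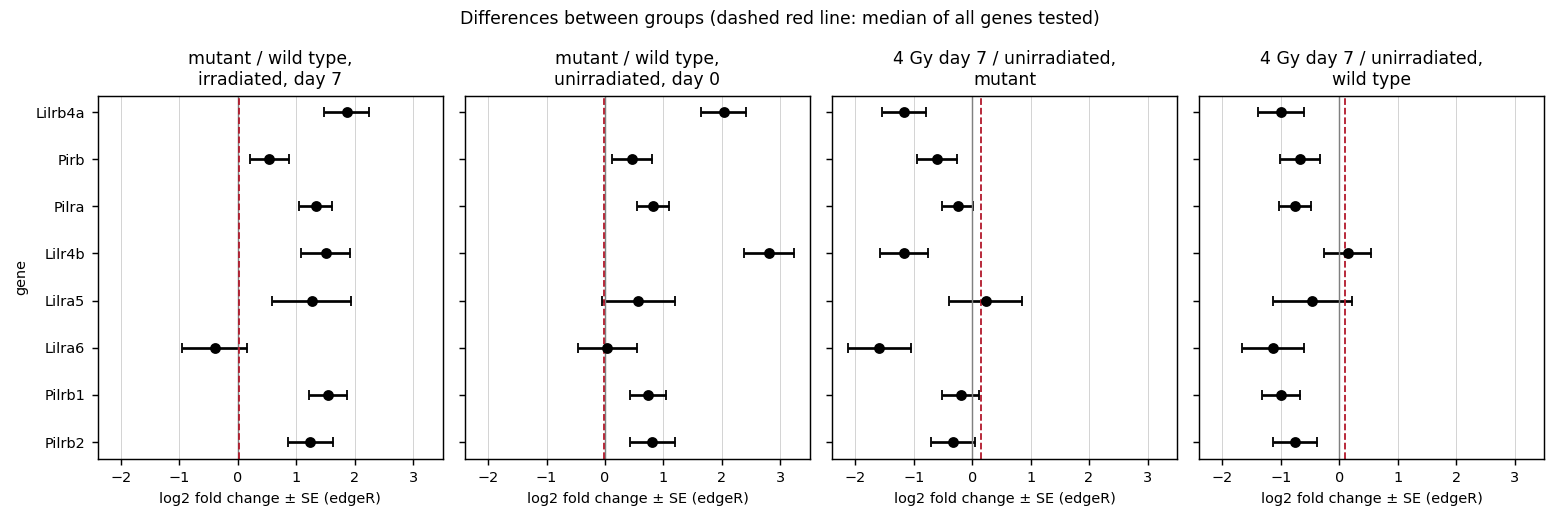
Log2 fold change with its standard error (edgeR) of each receptor in 4 comparisons, with 0 as a grey line and the median of all genes tested as a dashed red line. Between mutant and wild type, 7 of 8 receptors at day 7 and 8 of 8 at day 0 are above 0; between irradiated and unirradiated spleens, 1 of 8 is above 0 in each genotype.

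Irradiated mutants were set against unirradiated mutants, which also served in the genotype comparison at day 0, so the contrasts are not independent. Since that comparison was taken to have chosen the genes, the values of the receptors here depend in part on the choice. The adjusted p was 0.146 or more for the 8 receptors and 0 were called by edgeR, against 0.6% of all genes. At an unadjusted p under 0.05 there were 3 (Lilr4b, Lilrb4a and Lilra6), against 22.1% of all genes. Lilr4b and Lilrb4a both had a log2 fold change of -1.17 (SE 0.41 and 0.38), Lilra6 had -1.59 ± 0.54 and Pirb -0.60 ± 0.34. The Pilra locus was nearer to 0, with -0.25 ± 0.27 for Pilra, -0.20 ± 0.31 for Pilrb1 and -0.33 ± 0.38 for Pilrb2, and Lilra5 had 0.23 ± 0.63. The median was -0.46, against 0.15 over all genes, and 1 of 8 was above 0, against 56.3% of all genes. In this comparison 6 receptors lay below without overlap, against 25.7% of all genes. DESeq2 called 1, Lilra6 (adjusted p = 0.0461), against 11.3% of genes, and limma-voom called 0, against 0.606%. Without the second irradiated mutant library, edgeR called Lilr4b (adjusted p = 0.00471) and Lilrb4a (adjusted p = 0.0156), and 24.6% of the genes then tested. Without the first it called 0 receptors and 6.89% of the genes then tested, and the log2 fold change of Lilr4b was -0.76. As at day 7, the irradiated mutant library that remains is assumed to vary like those of the other groups. Without the filter on low counts it called the same 2 receptors and 7.27% of genes.

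In wild type, irradiated against unirradiated, the adjusted p was 0.198 or more and edgeR called 0 of the 8, against 0.0577% of all genes. The unirradiated wild-type libraries also served in the genotype comparison at day 0, taken to have chosen the genes. The values of the receptors here are thus not independent of that choice. At an unadjusted p under 0.05 there were 3 (Lilrb4a, Pilra and Pilrb1), against 17.3% of all genes. Lilrb4a had a log2 fold change of -1.0 ± 0.39, Pilrb1 -1.0 ± 0.32, Pilra -0.76 ± 0.28, Pilrb2 -0.76 ± 0.38, Pirb -0.67 ± 0.34 and Lilra6 -1.14 ± 0.53. Lilr4b had 0.14 ± 0.41 and Lilra5 -0.46 ± 0.67. The median was -0.76, against 0.09 over all genes, and 1 of 8 was above 0, against 54.2% of all genes. Here 6 receptors lay below without overlap, against 27.8% of all genes. DESeq2 and limma-voom called 0 of the 8, against 6.56% and 0.0289% of genes. Without the first or the second irradiated mutant library, which belong to neither group compared here and enter through the shared fit, edgeR called Pilrb1 (adjusted p = 0.0483 and 0.0452), with 13% (2436 of 18724) and 14.2% of the genes then tested called as well.

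Whether the difference between irradiated and unirradiated spleens was unequal in the 2 genotypes was tested as an interaction. The interaction uses the unirradiated libraries too, those of the contrast taken to have chosen the genes. edgeR, DESeq2 and limma-voom called 0 of the 8 receptors (edgeR adjusted p = 1 for each), and edgeR gave 0 at an unadjusted p under 0.05, against 1.6% of all genes. Of all genes, edgeR and limma-voom called 0.0% and DESeq2 0.0231%. The interaction of Lilr4b was -1.31 ± 0.58 on the log2 scale and that of Pilrb1 was 0.81 ± 0.44. The other 6 ranged from -0.45 to 0.69.

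The receptors of the Pilra locus had closely similar profiles over the 8 libraries. Likeness was measured as the root mean square distance between log2 CPM values centred on each gene's mean. Pilra and Pilrb1 were 0.12 apart, the smallest distance among the 28 pairs of receptors, and Pilrb1 and Pilrb2 were 0.21 apart. Lilr4b and Lilrb4a were 0.429 apart and Pirb and Lilra6 0.537, so Pirb was nearer to Pilra, at 0.387, than to Lilra6. The largest distance was 1.273, between Lilr4b and Lilra6. Libraries of 1 group share their condition, so these distances describe the profiles only.

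Outside the receptors, 10869 genes of mean at least 5 CPM were searched for the nearest profiles. Sgms2, a sphingomyelin synthase, and Cxcr2, the neutrophil chemokine receptor, were nearest to both Lilr4b (0.391 and 0.495) and Lilrb4a (0.347 and 0.427). The next was Fpr2, a formyl peptide receptor, for Lilr4b (0.56), and Fcgr1, the high-affinity IgG receptor, for Lilrb4a (0.447). Fcgr1 was also nearest to Pilra (0.198) and to Pilrb1 (0.202). Pilra was followed by Entpd1 (0.225) and Cd244a (0.228), and Pilrb1 by Tlr4 (0.258) and Gzma (0.263). For Pilrb2 the nearest were Hacd4 (0.175), Igsf6 (0.228) and Tlr4 (0.233).

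Pirb was nearest to Rab31 (0.116), Tyrobp (0.12) and Wdfy2 (0.124). Lilra6 was nearest to Grap2 (0.15), an adaptor of lymphocytes and platelets, followed by Kcnk5 (0.185) and Prkab2 (0.226). For Lilra5 the nearest were Clec4a2 (0.231) and Clec4a3 (0.274), C-type lectin receptors of myeloid cells, and Tmem273 (0.289).

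The adaptors of the activating receptors differed in how they stood after irradiation. Tyrobp, which encodes DAP12, was at 73.6 and 114.8 CPM in irradiated mutants and 44.4 and 76.1 CPM in irradiated wild type, and at 119.7 and 116.9 CPM in unirradiated mutants and 88.4 and 92.6 CPM in unirradiated wild type. Fcer1g, the Fc receptor gamma chain, was at 301 and 309 CPM in irradiated mutants and 132 and 208 CPM in irradiated wild type, and at 102 and 135 CPM in unirradiated mutants and 80.3 and 91.1 CPM in unirradiated wild type. Tyrobp in irradiated wild type thus lay below the unirradiated libraries, whereas every irradiated Fcer1g value but the lowest was above every unirradiated one. The log2 fold change of Fcer1g was 1.36 ± 0.34 in mutants (adjusted p = 0.104, edgeR) and 0.99 ± 0.34 in wild type (adjusted p = 0.221, edgeR).

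Of the 10 adaptors and kinases listed for the activating arm, 0 were called in any of the 5 comparisons. Over all genes, edgeR called 0.0% to 0.6% in these comparisons. Syk, the kinase that acts after both adaptors, was at 50.7 and 138 CPM in irradiated mutants and at 325 and 336 CPM in unirradiated mutants (log2 fold change -1.80 ± 0.54, adjusted p = 0.127, edgeR). In wild type it was at 84.5 and 174 CPM after irradiation and at 366 and 359 CPM without (log2 fold change -1.49 ± 0.53, adjusted p = 0.236, edgeR). Plcg2, a phospholipase activated after Syk, had log2 fold changes of -1.64 ± 0.62 in mutants and -1.69 ± 0.63 in wild type. Both genes are also used by B cells, whose 8 markers summed to 83.04 and 1117 CPM in irradiated mutants, 671 and 1378 CPM in irradiated wild type, 2258 and 2315 CPM in unirradiated mutants, and 3448 and 4335 CPM in unirradiated wild type; the part of these cells in the kinase values was not tested.

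Of the 4 phosphatases used by inhibitory receptors, 0 were called in any comparison, against 0.0% to 0.6% of all genes. Ptpn6, which encodes SHP-1, was at 69.03 and 172 CPM in irradiated mutants and 83.3 and 170.2 CPM in irradiated wild type. It was at 293 and 312 CPM in unirradiated mutants and 422 and 503 CPM in unirradiated wild type. It was thus below the unirradiated libraries after irradiation in both genotypes (log2 fold change -1.32 ± 0.51 in mutants and -1.87 ± 0.52 in wild type), and unlike Lilrb4a and Pirb it was below wild type in unirradiated mutants (-0.61 ± 0.51). Ptpn11 and Inpp5d, which encode SHP-2 and SHIP-1, had log2 fold changes between -0.32 and 0.25 in the 4 pairwise comparisons.

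Of 17 listed ligands 15 were tested, and 0 were called in any comparison, against 0.0% to 0.6% of all genes. B2m, the light chain of the MHC class I molecules that PIR-B binds, was at 4244 and 4352 CPM in irradiated mutants and 2290.0 and 1928 CPM in irradiated wild type (log2 fold change 1.03 ± 0.36, adjusted p = 1, edgeR). Unirradiated libraries had 2324 and 2155 CPM in mutants and 1850.0 and 2343 CPM in wild type. For B2m the 2 irradiated mutants were thus apart from the other 6 libraries, which did not hold for the 2 class I heavy chains listed. H2-D1 was at 1576 and 2059 CPM in irradiated mutants, 1102 and 1377 CPM in irradiated wild type and 1885 to 2466 CPM in unirradiated libraries. H2-K1 was at 1841 and 4252 CPM in irradiated mutants, overlapping irradiated wild type at 2079 and 2973 CPM. Itgb3, a chain of the integrin that binds gp49B, was at 16.8 and 34.9 CPM in irradiated mutants and at 81.7 and 134 CPM in unirradiated mutants (log2 fold change -2.05 ± 0.45, adjusted p = 0.09, edgeR). Fn1, the matrix protein fibronectin, was at 135 and 492 CPM in irradiated mutants and at 66.4 and 67.4 CPM in unirradiated mutants (2.23 ± 0.58, adjusted p = 0.107, edgeR).

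Other paired receptors of myeloid cells, a list of 28 that were all tested, had a median log2 fold change of 0.91 in mutants at day 0 and 0.84 at day 7. At day 7, 23 of the 28 were above 0 and 14 lay above wild type without overlap, against 51.6% and 10.4% of all genes, while 0 were called, against 0.0%. Fcgr4 and Fcgr3, activating IgG receptors that need Fcer1g, had log2 fold changes of 2.08 ± 0.27 and 1.87 ± 0.27 (adjusted p = 0.812 for both, edgeR). Fcgr4 was at 59.2 and 67.98 CPM in irradiated mutants and 15.1 and 15.01 CPM in irradiated wild type.

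Between irradiated and unirradiated mutants, 2 of the 28 fell, Cd300lf and Trem3, against 0.6% of all genes called in either direction, and 13 lay below without overlap, against 25.7%. Cd300lf, an inhibitory CD300 receptor, was at 8.88 and 12.9 CPM in irradiated mutants and at 57.4 and 71.2 CPM in unirradiated mutants (log2 fold change -2.55 ± 0.33, adjusted p = 0.0286, edgeR). Trem3, an activating DAP12-coupled receptor, was at 1.64 and 1.88 CPM in irradiated mutants and at 21.2 and 38.8 CPM in unirradiated mutants (-4.08 ± 0.51, adjusted p = 0.027, edgeR). The median of the 28 was -0.28 in this comparison and -0.39 in wild type, where 0 were called, against 0.0577% of all genes.

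Of 15 listed relatives from the leukocyte receptor complex 5 were tested (Lair1, Tarm1, Gp6, Ncr1 and Pira2). Lair1, an inhibitory collagen receptor, was at 37.4 and 59.1 CPM in irradiated mutants and 17.9 and 21.2 CPM in irradiated wild type, and at 44.4 and 41.2 CPM in unirradiated mutants and 30.2 and 27.8 CPM in unirradiated wild type. Its mutant libraries were above wild type on both days. Its log2 fold change at day 7 was 1.30 ± 0.30 (adjusted p = 0.953, edgeR). Gp6, the platelet collagen receptor, fell in irradiated mutants to 1.64 and 0.997 CPM, against 9.81 and 13.8 CPM in unirradiated mutants (log2 fold change -3.19 ± 0.45, adjusted p = 0.0344, edgeR). In wild type it was at 1.35 and 1.24 CPM after irradiation and at 10.2 and 10.9 CPM without (-3.02 ± 0.45, adjusted p = 0.076, edgeR), and the difference between the genotypes in this change was not called. Pira2, a PIR-A gene, had log2 fold changes of -1.86 in mutants and -2.24 in wild type after irradiation, at levels near the floor. It was at 0.467 and 0.609 CPM in irradiated mutants and at 0.0 and 0.530 CPM in irradiated wild type. It was at 1.963 and 2.048 CPM in unirradiated mutants and at 1.495 and 1.075 CPM in unirradiated wild type.

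Markers of the cells that carry these receptors also differed between the groups. Granulocyte markers (16 genes, all tested) summed to 266 and 297 CPM in irradiated mutants and 237 and 109 CPM in irradiated wild type, and to 6379 and 12640.0 CPM in unirradiated mutants and 1885 and 1614 CPM in unirradiated wild type. In irradiated against unirradiated mutants all 16 lay below without overlap, against 25.7% of all genes. Of these 11 fell, against 0.6% of all genes called in either direction, and the median log2 fold change was -5.07, further from 0 than the value of any receptor. At day 0 all 16 lay above wild type in mutants without overlap, against 20.7% of all genes, with a median log2 fold change of 2.46. In irradiated wild type Elane was at 0 in one library and Ly6g in the other.

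Macrophage markers (14 genes) summed to 4539 and 3596 CPM in irradiated mutants, 1596 and 2253 CPM in irradiated wild type, 1763 and 1384 CPM in unirradiated mutants, and 1478 and 1376 CPM in unirradiated wild type. At day 7 all 14 were above 0 in mutants over wild type, against 51.6% of all genes, with a median log2 fold change of 1.10. Of the 14, 0 were called, against 0.0% of all genes. At day 0 their median was 0.15 and 9 of 14 were above 0, against 46.7% of all genes. In irradiated against unirradiated mutants their median was 1.24, whereas that of the receptors was -0.46. Monocyte markers (8 genes) summed to 366 and 582 CPM in irradiated mutants, 215 and 327 CPM in irradiated wild type, 1004 and 1283 CPM in unirradiated mutants, and 595 and 545 CPM in unirradiated wild type. Csf1r alone held 253 and 263 CPM of the monocyte sums in irradiated mutants, and 81.9 and 140 CPM in irradiated wild type. At day 7, 6 of the 8 monocyte markers were above 0 in mutants over wild type, against 51.6% of all genes. Nr4a1 and Ace were below 0, with log2 fold changes of -1.32 and -0.38. The part of granulocytes, monocytes and macrophages in the receptor values was not tested.

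**Figure D4:**
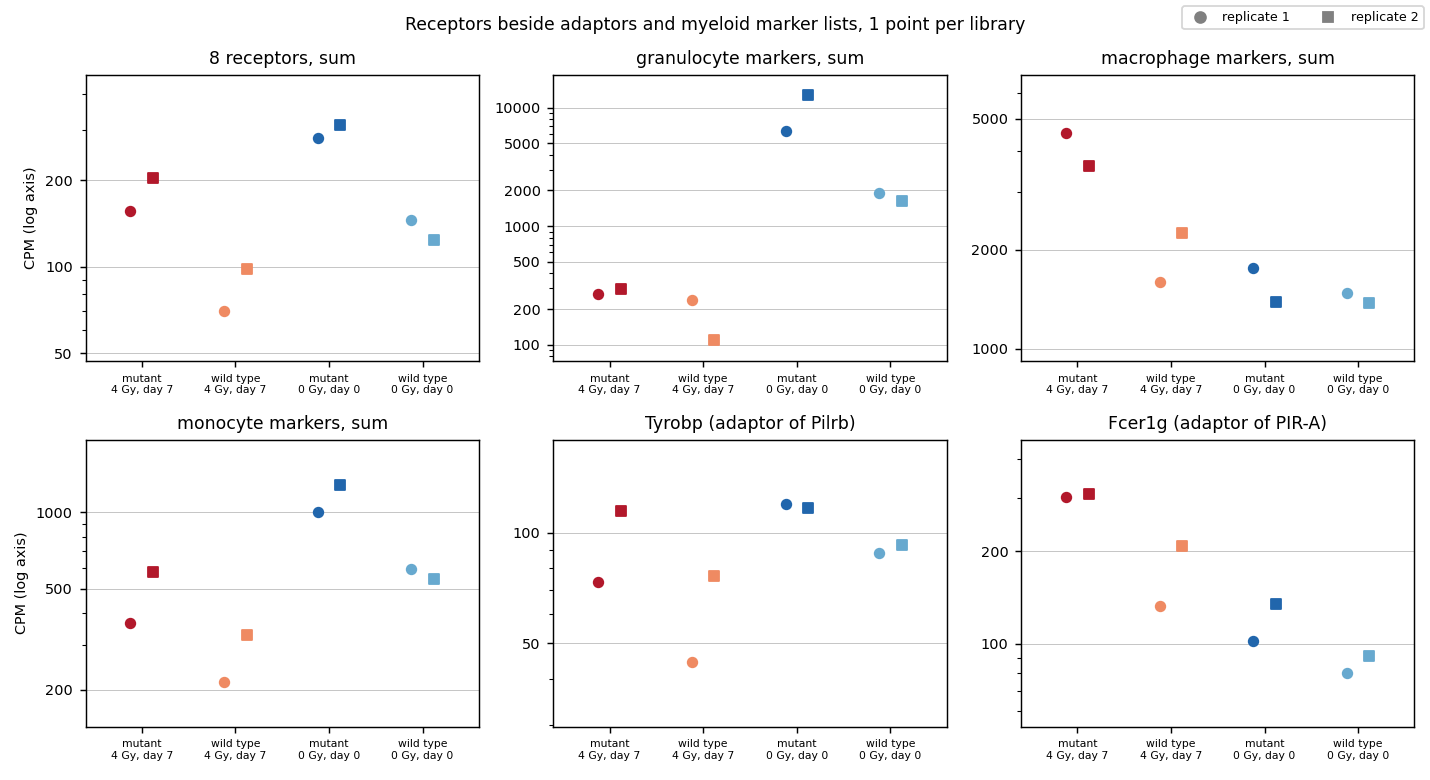
Summed level of the 8 receptors, summed levels of granulocyte, macrophage and monocyte markers, and levels of the adaptor genes Tyrobp and Fcer1g, in CPM on log axes with 1 point per library. Granulocyte markers are highest in unirradiated mutants (6379 and 12640.0 CPM) and macrophage markers in irradiated mutants (4539 and 3596 CPM).

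Markers of other cells gave further context. Mast cell and basophil markers (8 genes, 7 tested) summed to 38.7 and 49.9 CPM in irradiated mutants, 40.6 and 55.9 CPM in irradiated wild type, 75.7 and 101 CPM in unirradiated mutants, and 57.6 and 46.1 CPM in unirradiated wild type. In irradiated wild type 4 of the 8 were at 0 in each library, among them Fcer1a, Mcpt8 and Prss34 in both. Eosinophil markers (6 genes) summed to 96.5 and 27.2 CPM in irradiated mutants, 28.7 and 38.3 CPM in irradiated wild type, 68.5 and 48.8 CPM in unirradiated mutants, and 67.8 and 49.4 CPM in unirradiated wild type. Ccr3 alone held 89.6 CPM of the eosinophil sum in the first irradiated mutant library, where Ear6, Epx and Siglecf were at 0. Dendritic cell markers (8 genes) summed to 163 to 428 CPM over the 8 libraries, and the 2 genotypes overlapped on both days. Genes of liver and fat (8 genes) summed to 496 and 1338 CPM in irradiated mutants, against 6.85 to 215 CPM in the other 6 libraries. The part of these sources in the receptor values was not tested.

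Near-identical sequence and overlapping annotation limit how reads of some receptors can be assigned. Of all 50-base windows in the annotated transcripts, 47.2% in Lilrb4a, 34.0% in Pirb, 32.2% in Pilrb1, 31.3% in Lilra6, 30.6% in Pilrb2, 24.5% in Lilr4b and 20.8% in Pilra also occur in another gene, and 0.0% in Lilra5. Gm49339 overlaps Lilrb4a on the same strand by 1846 exonic bases and Lilr4b by 122 bases, and held 0 to 4 counts per library. Zcwpw1 overlaps Pilra on the opposite strand by 468 bases, and held 51 to 235 counts per library. The gene sharing most windows was Gm49339 for Lilrb4a (33.7%) and Zcwpw1 for Pilra (13.2%). The sources used here do not say how reads with several matches were counted. When each set of neighbours was summed to 1 feature (an alternative added after seeing the data), the log2 fold change at day 7 was 1.66 ± 0.39 for Lilr4b with Lilrb4a and 1.39 ± 0.32 for Pilrb1 with Pilrb2.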

How the data were processed

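RNA was extracted with Trizol from frozen spleens and libraries were made with an mRNA kit, per the labels' protocols. The deposited file held raw counts of reads per gene, made by the authors, with 1 column per library and 0 columns of no sample. Trim Galore, Subread and featureCounts, and the builds hg38 and mm10, are named per the submitters' processing notes. The sources used here do not give versions, strand setting or the treatment of reads with several matches. The labels' growth protocol describes human cells and was not used.

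Symbols were found for 52403 of 52636 identifiers in GENCODE M21 (GRCm38). Genes were kept by filterByExpr (minimum count 10, minimum total 15), scaled by TMM and tested with edgeR 4.0.16 (R 4.3.3) in 1 quasi-likelihood fit of the 4 groups, with Benjamini-Hochberg adjustment over all 17327 genes and a threshold of 0.05. The fit was tested on simulated data. DESeq2 1.42.0, limma-voom (limma 3.58.1), other scalings, no filter, only the groups compared, a replicate block and leaving out each library were alternatives. Non-overlap means that every library of one group lies above every library of the other.

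The receptors, gene lists and tests were chosen with earlier results of these data known. From the lists of signalling partners, ligands and other receptors the text names every gene called. Where none was, it names genes among the 3 with the largest non-overlapping change at a mean of at least 5 CPM. Adaptors and phosphatases that act on the receptors, class I heavy chains and every tested relative from the receptor complex are named for their roles. Cell type markers are given by sums and counts. Chromosome positions come from RefSeq and GENCODE.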

Additional observations from a re-analysis of the deposited data

How the results depend on the processing

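With the fit described, 0 of the 8 receptors were called in each comparison. Without the filter on low counts, edgeR called 2 in the genotype comparison at day 0, against 0.484% of all genes. It called 1 at day 7 (Lilrb4a, adjusted p = 0.00542), against 0.569%, and 2 in irradiated mutants (Lilr4b and Lilrb4a), against 7.27%. DESeq2 called 2 at day 0, 3 at day 7 and 1 in irradiated mutants, against 0.354%, 0.477% and 11.3%. A fit of only the 2 groups compared called 3 at day 0, against 2.81%. Nothing is read from the day 0 counts, since that contrast was taken to have chosen the genes. When each library was left out in turn, the log2 fold change of Lilr4b ranged from 2.58 to 3.08 at day 0 and from 0.74 to 2.0 at day 7. It ranged from -2.02 to -0.76 in irradiated mutants and from -0.10 to 0.40 in irradiated wild type. RLE and upper quartile scaling and limma-voom left each count at 0. Leaving out a library leaves 1 in its group, assumed to vary like the others. Causes were not tested.

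Equal replicate numbers are given no meaning by the labels. With a replicate block, 0 receptors were called in each comparison, and over all genes 253 against 104 were called in irradiated mutants and 16 against 10 in irradiated wild type. Same-numbered libraries deviated together with r between 0.035 and 0.465.

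Some log2 fold changes near 0 turned round when 1 library was left out. At day 0 Lilra6 ranged from -0.20 (without the first unirradiated mutant) to 0.25. At day 7 Lilra6 ranged from -0.79 to 0.11 (0.11 without the second irradiated wild-type library). In irradiated wild type Lilr4b ranged from -0.10 to 0.40, with -0.10 and -0.02 without the second library of unirradiated and of irradiated wild type. In irradiated mutants Lilra5 ranged from -0.63 (without the first irradiated mutant) to 0.64, and was -0.03 by limma-voom. In the interaction Lilrb4a ranged from -0.66 to 0.18, with 0.18 without the second unirradiated wild-type library and 0.17 without the first irradiated mutant. There Lilra5 ranged from -0.10 (without the first irradiated mutant) to 1.16, and Lilra6 from -0.83 to 0.07 (without the second irradiated wild-type library). Pirb ranged from -0.33 to 0.49 in the interaction, with -0.04 without the first unirradiated mutant, -0.25 without the first irradiated wild-type library and -0.33 without the second irradiated mutant. Summed with its near-identical relative Pirb, Lilra6 had 0.51 at day 7 and 0.07 in the interaction. That sum is mostly Pirb, which held 329 to 2022 counts per library against 10 to 86 for Lilra6, so it says little of Lilra6. Summed with Lilrb4a, Lilr4b had -0.44 in irradiated wild type. The difference in the Lilr4b share ranged from 5.66 to 11.3 points and that in the Pilrb share from -2.70 to -0.21 when 1 library was left out. With 2 libraries a group, small differences of Lilra5 and Lilra6 could not be resolved at these counts.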

Other observations

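T cell markers (8 genes) summed to 162 and 1168 CPM in irradiated mutants, 499 and 904 CPM in irradiated wild type, 632 and 592 CPM in unirradiated mutants, and 779.6 and 962 CPM in unirradiated wild type. Plasma cell markers (7 genes) summed to 1758 and 2748 CPM in irradiated mutants, 778 and 2348 CPM in irradiated wild type, 2930.0 and 2537 CPM in unirradiated mutants, and 997 and 1226 CPM in unirradiated wild type. NK cell markers (7 genes) summed to 82.6 and 144 CPM in irradiated mutants, 55.97 and 89.99 CPM in irradiated wild type, 160.0 and 118 CPM in unirradiated mutants, and 108 and 119 CPM in unirradiated wild type. The first irradiated mutant library had the lowest T cell and B cell sums, and less Lilr4b, Lilrb4a and Pirb than the second. It had more Lilra5, Lilra6, Pilrb1 and Pilrb2, and about as much Pilra. A link between these values was not tested.

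Genes that share sequence with Pirb and Lilra6 and lie near them on chromosome 7 had few counts. Gm15448 held 21 and 27 counts in irradiated mutants, 5 and 5 in irradiated wild type, 98 and 66 in unirradiated mutants, and 71 and 42 in unirradiated wild type. Gm14548 held 6 and 1 counts in irradiated mutants, 4 and 1 in irradiated wild type, 47 and 38 in unirradiated mutants, and 26 and 17 in unirradiated wild type. Both were chosen after their values were seen.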
